A study of Mus musculus with 4 samples.

Results

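Tissue inhibitors of metalloproteinases (TIMPs) and matrix metalloproteinases (MMPs) were examined in heart and muscle of mice in which the gene for the mitochondrial superoxide dismutase MnSOD, Sod2, had been deleted. The 9 genes were chosen by function, as the inhibitors Timp1, Timp2, Timp3 and Timp4 and the proteases Mmp2, Mmp3, Mmp9, Mmp14 and Mmp15. Earlier results of these data were known when they were chosen, so their counts are not those of a set picked blind. Every probe set that carries the symbol of 1 of them alone was taken, which gave 8 of the 18193 genes named on the arrays and 21 of 45037 probe sets. The expression of Mmp15 is not analysed here, and the gene enters only the promoter counts. The d/d animals were homozygous for a floxed Sod2 allele and carried an MCK-Cre transgene, in which the muscle creatine kinase promoter drives Cre recombinase. The f/f animals were homozygous for the floxed allele and labelled as controls, and the labels do not say whether they carried the transgene. The floxed allele is thus common to all groups, in deleted form where Cre acted. Heart and muscle of each genotype gave 4 groups, each with 1 oligonucleotide array of total RNA. Age, sex, strain, the number of animals behind a sample and the muscle that was taken are not stated in the sources used here, nor is whether heart and muscle came from the same animals. With 1 array a group there is no error between animals and no test, and every difference below describes a pair of arrays.

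MMPs are zinc proteases that cleave collagens, proteoglycans, fibronectin and other proteins of the extracellular matrix. They are made as inactive proenzymes and are blocked by TIMPs, which bind to the active site and hold its zinc ion. In heart muscle both families are made largely by fibroblasts and other non-muscle cells as well as by myocytes, and their balance is known to shift when a heart remodels. The MCK promoter acts in muscle cells, whereas a piece of tissue holds all cell types. In such samples a change in the number of cells of a type and a change in RNA per cell cannot be told apart.

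Signals are given as scaled intensity, the deposited value after the arrays had been brought to 1 trimmed mean, and differences as log2 of d/d over f/f. A floor of 7.51 was set for dim signals, and 58.0% to 61.1% of probe sets lay above it. The SD of the difference among probe sets that share a gene, 0.388 in heart and 0.400 in muscle on the log2 scale, serves as a technical yardstick. It measures disagreement between probes and not variation between animals. All 4 probe sets of Sod2 read lower in d/d heart, with log2 differences from -1.22 to -0.21. In muscle its differences ran from -0.44 to 0.06. Which of them fall within the floxed stretch is not known here, so they are a limited check of the deletion. The cardiac markers summed to 29980 in d/d heart against 31878 in f/f heart, and to 2389 in d/d muscle against 2734 in f/f muscle. The skeletal muscle markers summed to 8786 in d/d heart against 5808 in f/f heart, and to 63011 in d/d muscle against 58665 in f/f muscle, so each tissue was high in its own markers. The 3 control probe sets for 18S ribosomal RNA read 1.64 to 2.58 times higher on the d/d than on the f/f heart array, and 0.854 to 1.02 times in muscle. After scaling, the 43 spike-in control probe sets had a median d/d over f/f ratio of 1.23 in heart, with 38 above 1. In muscle their median ratio was 0.928, with 12 above 1.

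In d/d heart, most TIMP and MMP transcripts read higher than in f/f heart, with Timp1 far ahead, while Timp4 and Mmp9 read lower. Of the 8 genes, each represented by its brightest probe set, 4 were at least 2-fold higher, namely Timp1, Mmp3, Timp3 and Mmp2, and 0 were at least 2-fold lower. Among all 13836 genes with a heart signal, 3.94% passed 2-fold upwards and 4.22% downwards, or 5.97% and 2.84% when the arrays were brought to a common median instead. The 8 genes had a median log2 difference of 1.02, against -0.05 over all genes. Counted by probe set, 16 of the 19 with signal above the floor read higher in d/d heart. Of these, 5 belong to Timp2 and 4 to Timp3, so they are not independent readings. Of all 29960 probe sets with a heart signal, 44.8% read higher in d/d. The other 2 probe sets, 1 of Timp2 and 1 of Mmp9, were at the floor on all 4 arrays.

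**Figure D1:**
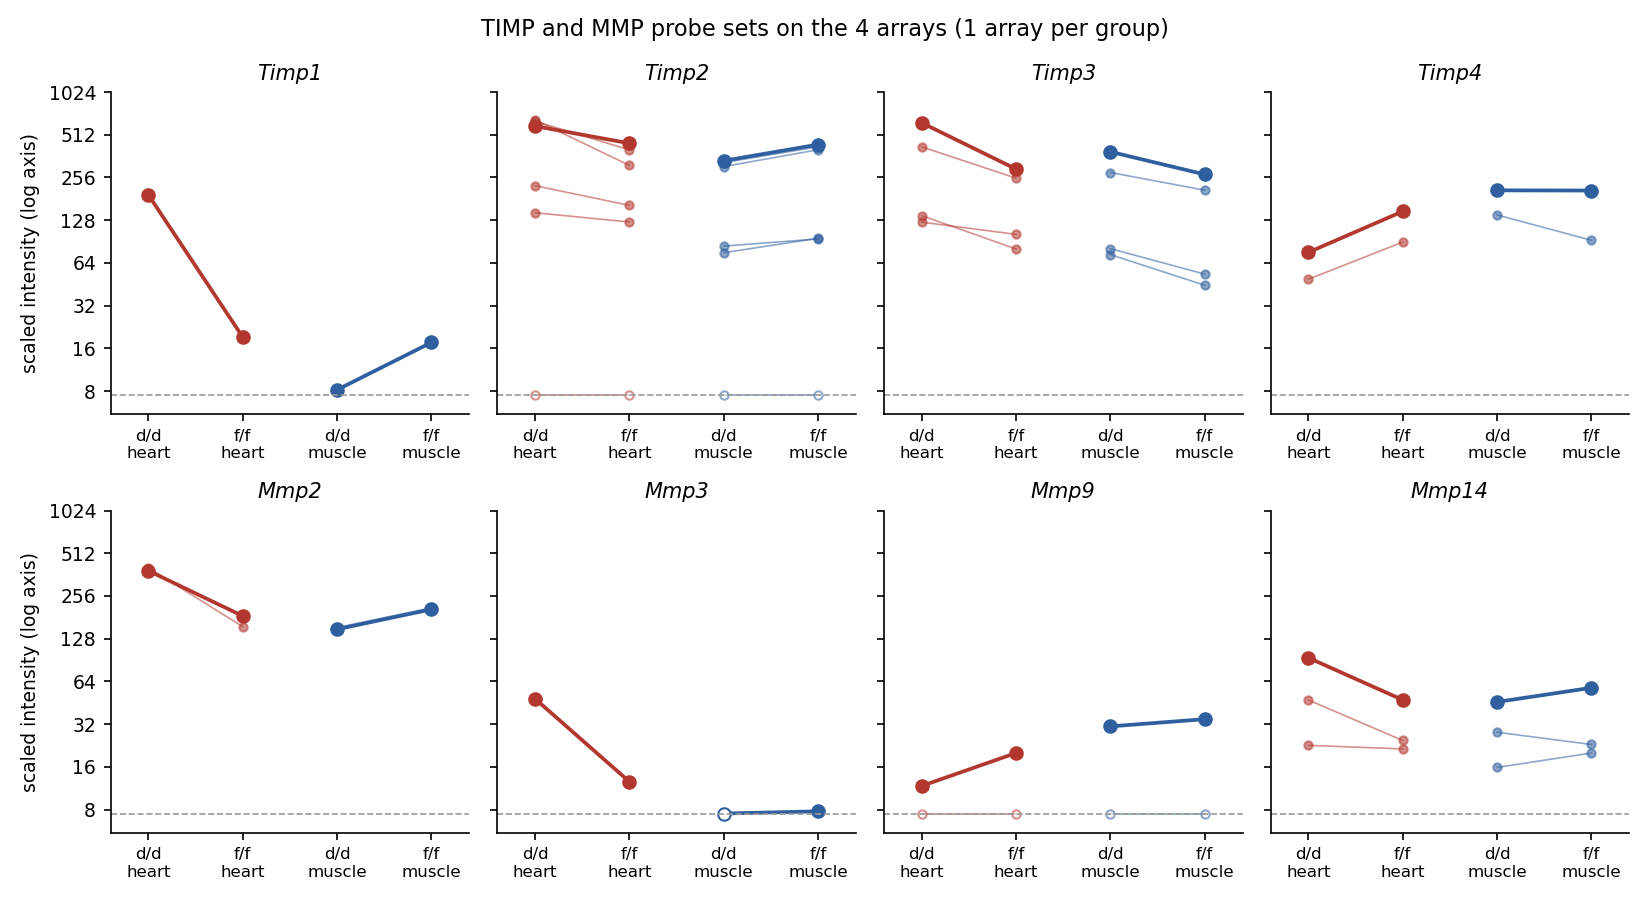
Scaled intensity (log axis) of every probe set of the 8 genes on the arrays, from left d/d heart, f/f heart, then d/d muscle, f/f muscle; red marks heart and blue muscle, the bold line is the brightest probe set of a gene, open circles are signals at the floor and the dashed line is the floor of 7.51. Timp1 stands at 193 on the d/d heart array and between 8.18 and 19.2 on the other arrays.

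Timp1 encodes a secreted inhibitor that is induced by cytokines and growth factors. Its single probe set read 193 in d/d heart against 19.2 in f/f heart, 10.04-fold higher. It took rank 19 of 13836 genes by the size of its positive difference. In muscle the same probe set read 8.18 in d/d, just above the floor, against 17.6 in f/f, 2.16-fold lower. The d/d heart array thus stood far above the other 3, and the controls of both tissues were close to each other, at 19.2 in heart and 17.6 in muscle.

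Timp1, Mmp3 and Timp4 are shown with the 250 bases before their RefSeq transcription start, because Timp1 and Mmp3 had the largest positive differences of the 8 genes in heart and Timp4 the largest negative one. The stretches are 5′ to 3′ on the gene's strand, build GRCm38.p6, chrX:20869916-20870165 (plus strand) for Timp1, chr9:7445572-7445821 (plus strand) for Mmp3 and chr6:115252206-115252455 (minus strand) for Timp4. Capitals mark matches to AGGAAG, a core bound by ETS factors, to TGANTCA, the site of the AP-1 factors Fos and Jun, and to TATAAA, the TATA box, each searched on both strands. No match overlapped another.
Timp1: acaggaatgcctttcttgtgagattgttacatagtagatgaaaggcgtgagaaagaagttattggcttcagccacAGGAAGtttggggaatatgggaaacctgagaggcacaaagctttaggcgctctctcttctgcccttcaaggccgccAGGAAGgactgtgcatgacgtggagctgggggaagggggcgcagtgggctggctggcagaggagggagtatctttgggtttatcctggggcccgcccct
Mmp3: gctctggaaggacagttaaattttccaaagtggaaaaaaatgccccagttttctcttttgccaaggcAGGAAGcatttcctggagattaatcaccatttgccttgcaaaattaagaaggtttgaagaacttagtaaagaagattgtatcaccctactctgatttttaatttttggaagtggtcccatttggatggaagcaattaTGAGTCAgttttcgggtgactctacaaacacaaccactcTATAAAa
Timp4: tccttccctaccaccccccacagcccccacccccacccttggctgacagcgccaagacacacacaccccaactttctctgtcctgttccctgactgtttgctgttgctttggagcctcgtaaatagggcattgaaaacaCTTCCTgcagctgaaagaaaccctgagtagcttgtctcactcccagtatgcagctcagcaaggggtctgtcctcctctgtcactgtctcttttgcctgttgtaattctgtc

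The Timp1 stretch held AGGAAG at 2 places, 175 and 99 bases before the start, and neither TGANTCA nor TATAAA. The Mmp3 stretch held each of the motifs, with TGAGTCA 46 bases and TATAAA 7 bases before the annotated start, and had the lowest GC content of the 7 stretches available, 37.6%. Timp4 held AGGAAG alone, read on the reverse strand. The RefSeq promoter table had an entry for 7 of the 9 chosen genes, with Mmp15 among them and Mmp2 and Mmp9 missing. Of these 7, AGGAAG was in 5, TGANTCA in 1 and TATAAA in 1. Over all 32851 promoters of the table the shares were 29.5%, 6.75% and 12.4%. These matches describe letters in a window and do not show that a factor binds there.

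Timp2 encodes an inhibitor that also takes part, together with the membrane protease encoded by Mmp14, in activating the Mmp2 proenzyme. All 5 of its measured probe sets read higher in d/d heart, by 1.16-fold to 2.09-fold. The brightest read 589 against 446, 1.32-fold higher, while another of nearly the same brightness read 650 against 311. The mean log2 difference over the 5 was 0.56 (SD 0.32 between probe sets), so the sign was the same throughout and the size was not settled. In muscle all 5 read lower in d/d, with differences from -0.39 to -0.17, all under the yardstick.

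Timp3, whose product binds to the matrix and also inhibits shedding proteases of the ADAM family, was the inhibitor that read higher in d/d in both tissues. The brightest of its 4 probe sets read 621 in d/d against 293 in f/f heart, 2.12-fold higher, and the others 1.22-fold, 1.66-fold and 1.72-fold. With each array's median over the probe sets in place of the brightest, the heart difference was 0.59 and short of 2-fold. In d/d muscle that probe set read 388 against 269 in f/f muscle, 1.44-fold higher, and the 4 differences ran from 0.41 to 0.72. The direction was the same in all 8 pairs of values.

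Timp4 is known as the inhibitor with a restricted tissue range that includes the heart. It was the only TIMP that read lower in d/d heart. Its brighter probe set read 76.0 in d/d against 148 in f/f heart, 1.94-fold lower, and its dimmer one 49.1 against 89.8, 1.83-fold lower. With a mean log2 difference of -0.91 (SD 0.06), these probe sets were close to each other and short of 2-fold. Without any scaling of the arrays the brighter one was 2.02-fold lower. In muscle they disagreed in size, at 208 in d/d against 207 in f/f on the brighter and 139 against 92.4 on the dimmer. The sign of the brighter one turned under another scaling, at -0.09.

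**Figure D2:**
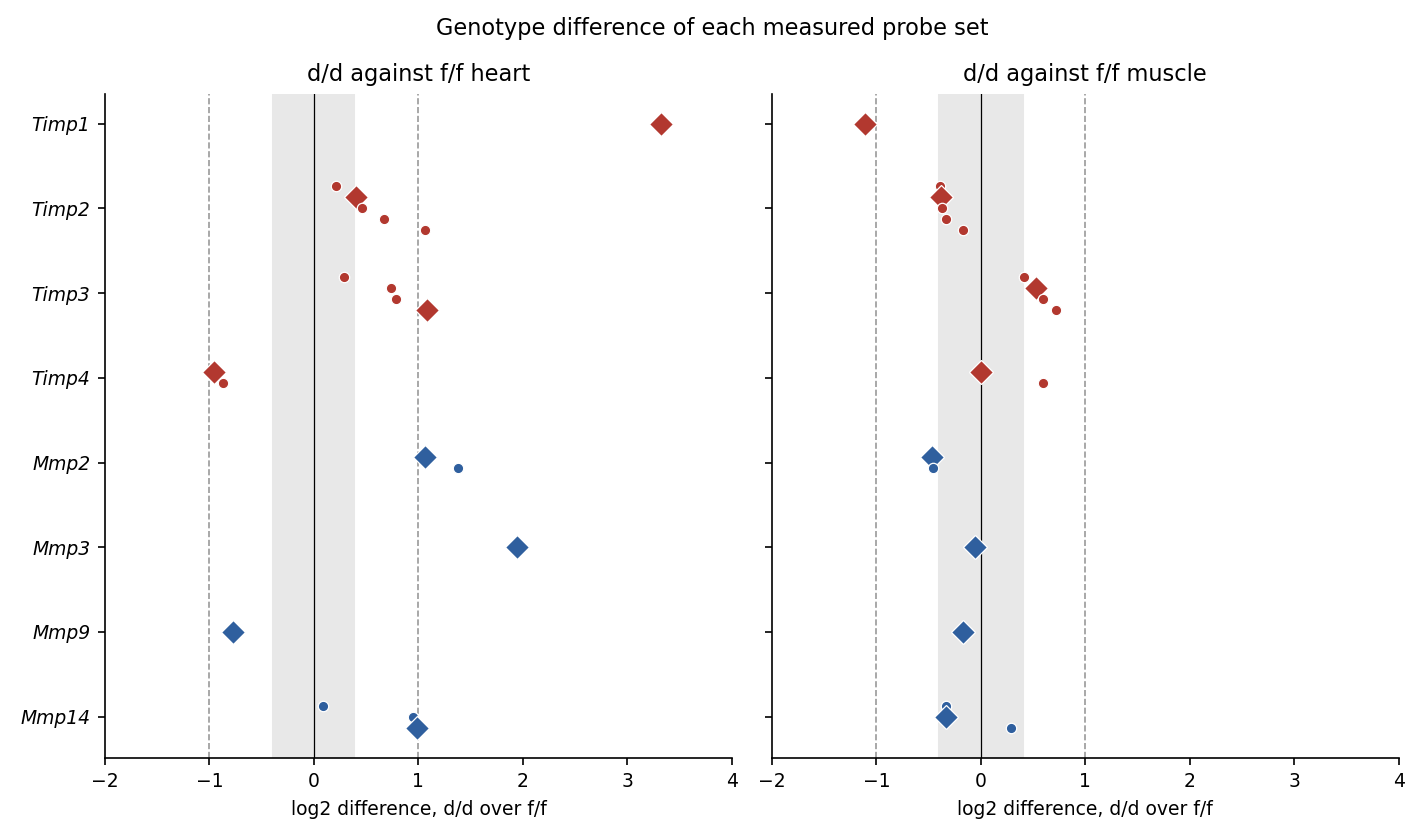
Log2 difference of d/d over f/f in heart (left) and muscle (right) for each measured probe set; diamonds are the brightest probe set of a gene, red marks TIMPs and blue MMPs, the grey band spans 1 SD between probe sets of a gene on either side of 0 and the dashed lines mark 2-fold. In heart Timp1 stands alone at 3.33, with Timp4 and Mmp9 left of 0.

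Among the proteases, Mmp2, the gelatinase that degrades denatured collagen and basement membrane, read higher in d/d heart on both of its probe sets. They stood at 385 and 405 in d/d heart, against 185 and 155 in f/f heart, 2.08-fold and 2.60-fold higher. In d/d muscle they were at 149 and 153, against 206 and 211 in f/f muscle, a log2 difference of -0.47 and -0.46. Mmp2 was thus the member with the closest agreement between probe sets in muscle, and it pointed the opposite way from heart.

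Mmp3 encodes stromelysin, which cleaves proteoglycans and fibronectin and activates other MMP proenzymes. Its single probe set read 48.3 in d/d against 12.6 in f/f heart, 3.84-fold higher, rank 69 of the genes in heart. The f/f signal was near the floor, and the fold was 2.25 on the log2(intensity + 16) scale. In muscle it read 1.47 in d/d, under the floor, and 7.79 in f/f, barely above it, so no fold is given there.

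Mmp14 encodes a membrane-anchored collagenase that activates the Mmp2 proenzyme at the cell surface. Its brightest probe set read 93.9 in d/d against 47.4 in f/f heart, 1.98-fold higher, just short of 2-fold, which it passed with a common median or quantile normalization. The 2 dimmer probe sets were 1.93-fold and 1.06-fold higher, the last at 22.7 against 21.4. In muscle the brightest read 45.9 in d/d against 57.7 in f/f, and the probe sets differed in sign, from -0.34 to 0.29. Mmp9, the gelatinase stored by neutrophils, was the only measured MMP among the chosen genes that read lower in d/d heart. It read 11.8 against 20.1, 1.71-fold lower. In muscle it read 30.9 in d/d against 34.7 in f/f, within the yardstick. All its signals were dim, and with the floor at the 60th percentile its heart difference was -0.08.

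In muscle, differences between d/d and f/f were smaller and of mixed sign. On their brightest probe sets Timp1 and Mmp2 read lower in d/d and Timp3 higher by more than the yardstick, and Timp2, Timp4, Mmp9 and Mmp14 were within it. Mmp3 could not be placed, since its d/d signal was under the floor. Its difference was -1.86 with the floor at the 20th percentile. Of the 8 genes, 0 were at least 2-fold higher and 1, Timp1, was at least 2-fold lower. Among all 14256 genes with a muscle signal, 2.64% passed 2-fold upwards and 3.25% downwards, or 1.51% and 3.35% without scaling. The 1 call in muscle is a signal near the floor, and 0 of the genes passed with the floor at the 60th percentile or on the log2(intensity + 16) scale. The median log2 difference of the 8 genes was -0.25, against -0.003 over all genes. By probe set, 12 of 19 read lower in d/d muscle and 7 higher, and of all 31153 probe sets with a muscle signal 49.4% read lower and 50.6% higher.

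The genotype difference in heart minus that in muscle was 4.44 for Timp1 on the log2 scale, rank 8 among 12711 genes measured in both tissues. For Mmp3 it was at least 1.99, since its d/d muscle signal was at the floor, and 3.80 with the floor at the 20th percentile. It was 1.52 for Mmp2 and 1.32 for Mmp14, the last 0.66 with the median over probe sets. Timp2 and Timp3 had 0.78 and 0.55. For Timp4 and Mmp9 it was -0.96 and -0.60, and for Mmp9 0.09 with the floor at the 60th percentile. Timp1 was the only 1 of the 8 genes that differed by over 1.5-fold in both tissues in opposite directions, as did 3.87% of all genes measured in both. This contrast of tissues was not tested, since each difference comes from 1 pair of arrays.

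**Figure D3:**
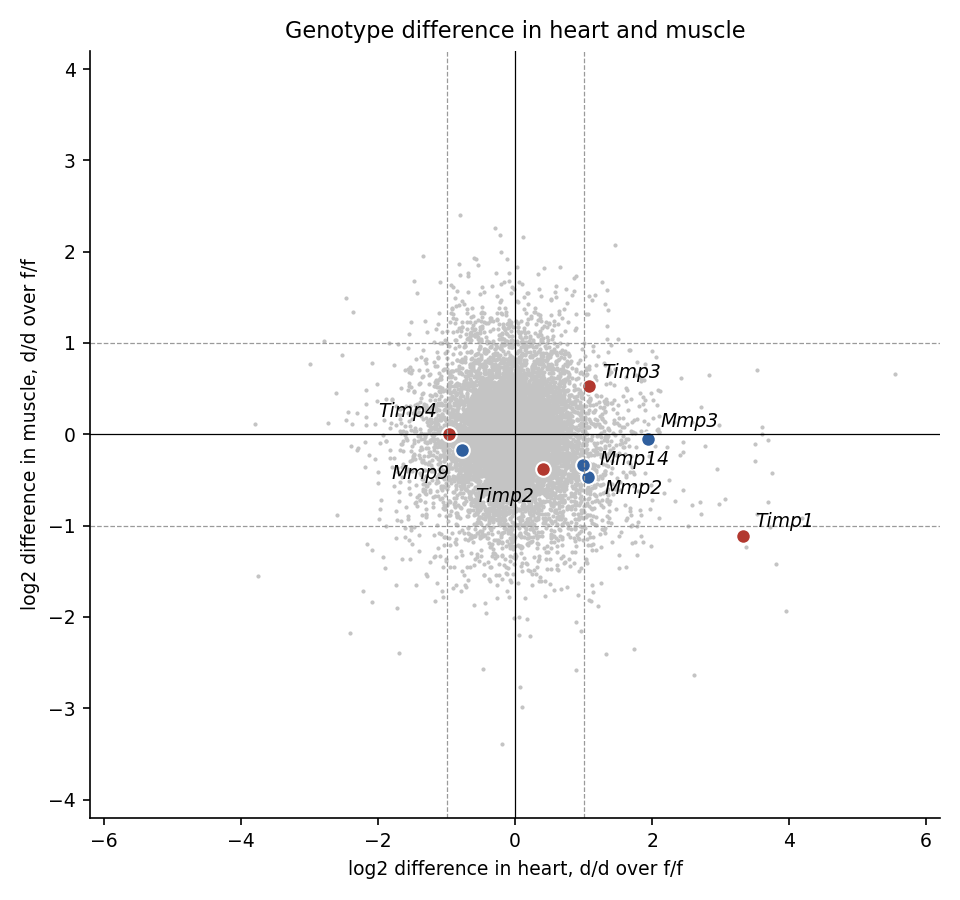
Log2 difference of d/d over f/f in heart (horizontal) and in muscle (vertical) for 12711 genes (grey), with TIMPs in red and MMPs in blue; dashed lines mark 2-fold. Timp1 lies at 3.33 and -1.11, at the edge of the cloud, while Timp4 and Mmp9 lie left of 0.

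Between heart and muscle these transcripts differed by more in d/d mice than in f/f mice on their brightest probe sets, though the contrast was not tested. For each gene the gap between genotypes equals its heart minus muscle difference given above. It is thus the same result seen by tissue and not a further one. In d/d mice, 4 of the 8 genes, Timp1, Mmp3, Mmp2 and Mmp14, were at least 2-fold higher in heart than in muscle, and 2, Timp4 and Mmp9, at least 2-fold lower. In f/f mice 0 were at least 2-fold higher and 0 lower. Of all genes, 15.1% were at least 2-fold higher in heart and 10.5% lower in d/d mice, and 12.1% higher and 8.3% lower in f/f mice. Without scaling of the arrays these shares were 26.9% and 5.40% in d/d mice and 23.7% and 4.62% in f/f mice, and the muscle arrays had the lower trimmed means as deposited. Of the 8 genes, 6 were then at least 2-fold higher in d/d heart, with Timp2 and Timp3 added, and 0 lower, with Timp4 at -0.98 and Mmp9 at -0.93 on the log2 scale. The SD between probe sets of a gene was 0.560 in the d/d and 0.534 in the f/f comparison of tissues.

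Timp1 was 23.6-fold higher in heart than in muscle of d/d mice and 1.09-fold higher in f/f mice. The d/d value rests on a muscle signal just above the floor and was 8.64-fold on the log2(intensity + 16) scale. Mmp3 was at least 6.43-fold higher in d/d heart, where the muscle signal was at the floor, and 1.62-fold higher in f/f heart. For Mmp2 the heart was 2.58-fold higher in d/d mice and 1.11-fold lower in f/f mice. On the brightest probe sets, the f/f differences of Timp1, Timp2, Mmp2 and Mmp14 were under the yardstick and changed sign under other settings. On those probe sets d/d heart was highest and d/d muscle lowest, with f/f heart and f/f muscle between. For Timp3 d/d heart was highest and f/f muscle lowest on all 4 probe sets, but the order of d/d muscle and f/f heart differed between them. Its heart over muscle difference in f/f mice was 0.13 on the brightest and 0.28, 0.85 and 0.93 on the others, the last pair beyond the yardstick. In d/d mice the same probe sets had 0.68, 0.60, 0.91 and 0.62, so the last differed by more in f/f mice. Of the 18 probe sets above the floor on all 4 arrays, 15 had their highest signal on the d/d heart array, against 27.5% of all 20511 such probe sets. The exceptions were both probe sets of Timp4, highest in d/d muscle, and the bright probe set of Mmp9, highest in f/f muscle. Most of the 15 share their gene with another of the 15, so they are not independent readings. Timp4 was 2.73-fold lower in heart than in muscle of d/d mice and 1.40-fold lower in f/f mice, and Mmp9 2.63-fold and 1.73-fold lower.

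**Figure D4:**
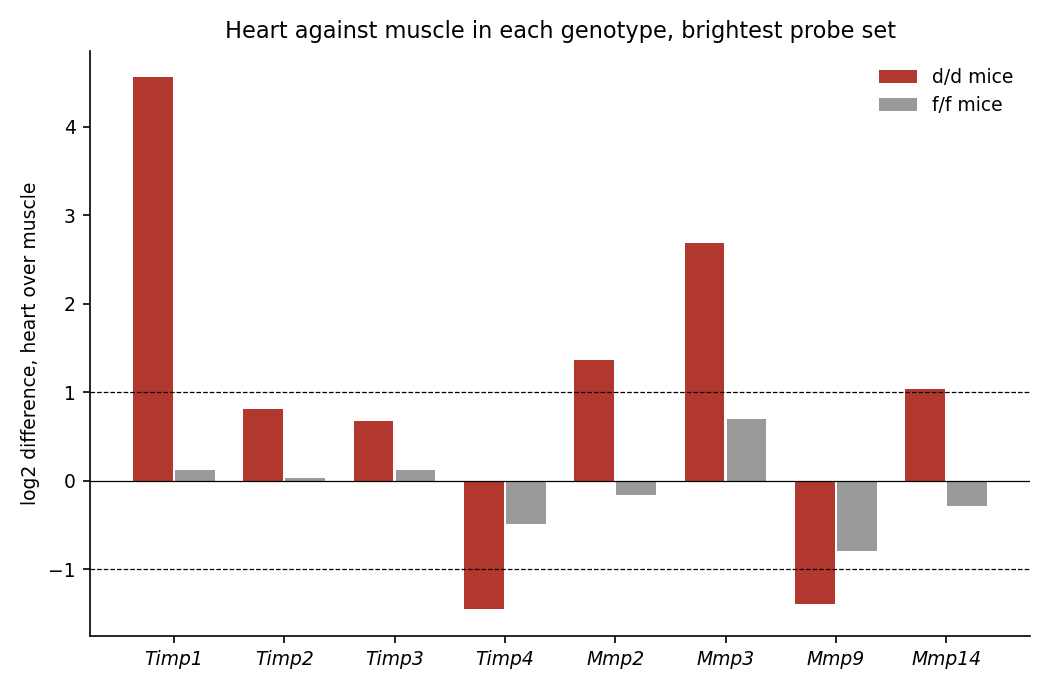
Log2 difference of heart over muscle for the brightest probe set of each gene in d/d mice (red) and f/f mice (grey); the dashed lines mark 2-fold, and the d/d bar of Mmp3 is a lower bound. In d/d mice 6 genes lie beyond the lines, and in f/f mice 0 do.

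The genes whose log2 values, centred over the 4 arrays, lay nearest to Timp1 among 10538 genes above the floor throughout were Ccn5, Col8a1 and Postn, at Euclidean distances of 0.38, 0.42 and 0.56. Ccn5, a matricellular protein gene, read 335 in d/d heart, 25.4 in f/f heart, 15.3 in d/d muscle against 30.8 in f/f muscle. Col8a1, a short-chain collagen gene, and Postn, which encodes periostin, shared the pattern of a high d/d heart signal and a d/d muscle signal below that of f/f muscle. Since they were picked for nearness to Timp1, this likeness was set by the choice. Nearest to Mmp2 were Ccr1, Fbxw17 and Cdk14, at 0.11 to 0.13, and nearest to Timp3 were 2410006H16Rik, Fmr1 and Spry1, at 0.07 to 0.12. A profile of 4 values is short, and near neighbours are easily found for differences of this size.

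Other parts of the matrix protease system were described with lists of genes, each set beside the share of all genes given above. Other MMP genes had a median log2 difference of 0.16 in heart, where 1 of 8 passed 2-fold upwards and 0 downwards. That gene, Mmp23, read 77.2 in d/d against 35.5 in f/f heart, 2.18-fold higher, and at least 2.41-fold lower in d/d muscle. Mmp13, an interstitial collagenase gene, read 15.99 in d/d against 41.2 in f/f muscle, 2.58-fold lower. In muscle the median was -0.01, and of 9 genes 0 passed upwards and these 2 downwards.

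ADAM and ADAMTS proteases, relatives of the MMPs that shed membrane proteins and cleave proteoglycans, had a median of 0.05 in heart, and of 21 genes 1 passed 2-fold upwards and 1 downwards. Adam9 was 2.35-fold higher, at 609 in d/d against 259 in f/f heart, and Adamts7 at least 3.47-fold lower. In muscle the median was -0.19 over 19 genes, with Adamts9 2.18-fold lower on its brightest probe set and from 1.05-fold lower to 1.34-fold higher on the others. The plasminogen activation list had 0 of 5 past 2-fold in heart, with a median of 0.06, and 1 of 7 in muscle, with a median of -0.27. The 1 gene was Serpinf2, the antiplasmin gene, at least 2.13-fold higher in d/d muscle.

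Cathepsins and cystatins, lysosomal proteases and their inhibitors, had a median of 0.38 in heart, where 4 of 13 passed 2-fold upwards and 0 downwards. The cystatin gene Cst6 was 3.49-fold higher, cathepsin S, Ctss, 2.97-fold and cathepsin Z, Ctsz, 2.46-fold. The fourth, chosen after its value was seen, was the collagen-degrading cathepsin K, Ctsk, 2.19-fold higher. In muscle the median was -0.03, and Ctsk read 30.6 in d/d against 67.0 in f/f muscle, 2.19-fold lower. Other inhibitors and partners had a median of 0.29 in heart, where 3 of 15 passed 2-fold upwards and 1 downwards. Lrp1, the endocytic receptor that clears MMP and TIMP complexes, was 2.60-fold higher, the procollagen processing enhancer Pcolce 2.16-fold and the hyaluronan receptor Cd44 2.14-fold, and the fibulin Efemp1 was 5.22-fold lower. In muscle 0 of 14 passed 2-fold, with a median of -0.27.

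The matrix proteins that these enzymes cleave had the largest median shift of the pathway lists. Their median was 0.91 in heart, where 9 of 22 passed 2-fold upwards and 0 downwards. Postn was 6.51-fold higher, the collagen gene Col5a2 4.30-fold and the proteoglycan Bgn 3.56-fold. In muscle it was -0.61, and of 23 genes 0 passed upwards and 5 downwards. Col1a1 was 2.73-fold lower there, fibronectin, Fn1, 2.50-fold and Col1a2 2.28-fold, but other probe sets of Col1a1 and Fn1 were 1.14-fold and 1.05-fold lower, and those of Col1a2 1.01-fold and 2.24-fold.

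Genes of signals known to act on MMP and TIMP promoters had a median of 0.18 in heart, where 2 of 20 passed 2-fold upwards and 1 downwards. The growth factor genes Tgfb2 and Tgfb3 were 2.45-fold and 2.24-fold higher. Fos, a subunit of AP-1, read 42.4 in d/d against 197 in f/f heart, 4.64-fold lower. In muscle the median was -0.32, and of 21 genes 1 passed upwards and 3 downwards. Junb, another AP-1 subunit, was 3.45-fold lower, Fos 3.27-fold and Egr1 2.83-fold. Runx1 was 2.11-fold higher on its brightest probe set and lower on 3 of its 4 others.

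**Figure D5:**
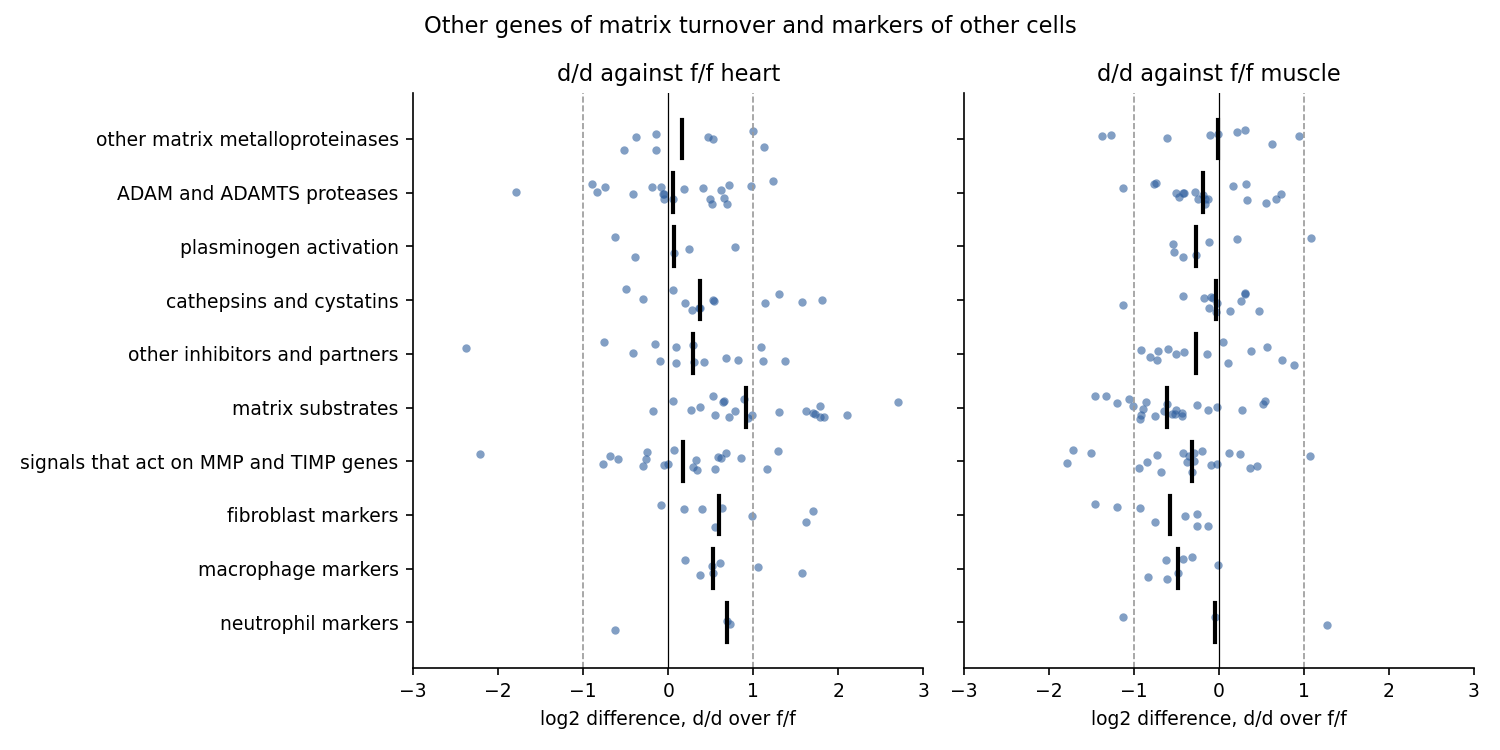
Log2 difference of d/d over f/f in heart (left) and muscle (right) for the measured genes of each list (points), with the median of the list as a black bar and dashed lines at 2-fold. The matrix substrate median is 0.91 in heart and -0.61 in muscle, and the fibroblast and macrophage medians also lie on opposite sides of 0.

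Markers of fibroblasts and macrophages moved with some of these transcripts. Timp3, Timp4 and Mmp9 did not follow them in both tissues. Fibroblast markers summed to 9545 in d/d heart against 5951 in f/f heart, with 7 of 8 above 0 and a median log2 difference of 0.59, and to 4487 in d/d muscle against 7023 in f/f muscle, with 8 of 8 below 0 and a median of -0.57. Macrophage markers summed to 1877 in d/d heart against 1243 in f/f heart, with 7 of 7 above 0, and to 548 in d/d muscle against 822 in f/f muscle, with 7 of 7 below 0. Their directions in both tissues were those of Timp1, Timp2, Mmp2 and the brightest probe set of Mmp14, and their part in those differences was not tested. The fibroblast list shares Col1a1, Col1a2, Col3a1 and Dcn with the matrix substrates, and the macrophage list shares Ctss with the cathepsins. Those shared fibroblast markers had 1.62, 1.70, 0.99 and 0.55 in heart and carried most of the rise of the sum. The others, Pdgfra, Lum, Tcf21 and Dpt, had 0.63, 0.39, 0.19 and -0.08, and another probe set of Tcf21 had -0.52. Endothelial markers had medians of 0.42 in heart and 0.03 in muscle, and smooth muscle markers -0.24 in both.

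Neutrophil markers, which bear on Mmp9, summed to 92.2 in d/d heart against 73.2 in f/f heart and to 75.8 in d/d muscle against 63.9 in f/f muscle. Mpo, Cxcr2 and Elane were at the floor on all 4 arrays, so 3 of the 6 markers on the arrays had no signal above it. The other 3 did not move together: S100a8 read higher in d/d in both tissues, by 0.69 in heart and 1.27 in muscle on the log2 scale, and Ngp lower, by -0.63 and -1.13. S100a9 had 0.73 in heart and -0.05 in muscle. Cardiac markers were lower in d/d muscle in all 5 measured, and Tnni3, the cardiac troponin I gene, stood at 8.30 in d/d against 86.8 in f/f muscle. In heart their median was -0.13. Whether that difference bears on the TIMP and MMP values in muscle was not tested. Skeletal muscle markers differed by at most 0.25 on the log2 scale in muscle, and in heart the skeletal actin gene Acta1 was 3.11-fold higher in d/d. Of the 3 adipocyte markers on the arrays only Adipoq was above the floor, at 10.4 in d/d heart against 46.6 in f/f heart and at 40.5 in d/d muscle against 93.4 in f/f muscle.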

How the data were processed

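The authors' steps from scan to intensity values, scaling included, are not given in the sources used here. Per array and probe set, 1 value on a linear scale was deposited. These deposited intensity values had means of 48.2 to 69.2 after trimming 2% at each end, so each array was scaled to the mean of the 4, leaving out 64 control probe sets. Values under the mean 40th percentile, 7.51, were set to that floor and log2 was taken. Names came from the platform annotation, with symbols looked up by Entrez id in RefSeq, which changed 0 of them: 34945 had 1 symbol, 932 several and 9160 none here. Genes, 18193 in all, were represented by their brightest probe set (mean log2 over the arrays).

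A gene was measured where either array was above the floor, and called at 2-fold or more with the higher array above it. Folds against the floor are lower bounds. No test was run, since each group has 1 array. Calling was tested on simulated data for the heart comparison, where all 200 of 18193 genes changed 4-fold were recovered, with 0 false calls. The changed genes each had a bright probe set, and the added noise was below the SD between probe sets. Recovery was thus largely set in advance. This covers the arithmetic, and neither dim signals nor variation between animals. From each list, at most the 3 largest differences per direction and tissue were named. The 3 nearest profiles were added for members past 2-fold in heart or muscle and above the floor on all 4 arrays, which left out Mmp3. Ctsk in heart was added to these after its value was seen. Promoter stretches are those of RefSeq, build GRCm38.p6. Genes and lists were chosen with earlier results of these data known. Alternatives covered scaling, floor, offset, gene value, probe sets and threshold. Python 3.11.15, numpy 2.4.6 and pandas 2.3.3 were used.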

Additional observations from a re-analysis of the deposited data

Results flagged for a closer look

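Timp1 differed in opposite directions in the tissues, at 3.33 in heart and -1.11 in muscle on the log2 scale of d/d over f/f, a difference of 4.44 between them. Of the 12711 genes measured in both tissues, 290 were over 1.5-fold higher in d/d heart and over 1.5-fold lower in d/d muscle, and 202 the other way round. Among the named genes of the lists, the matrix genes Postn, Fn1, Col1a1, Col5a2, Col1a2 and Bgn also read higher in d/d heart and lower in d/d muscle on their brightest probe sets, with heart minus muscle differences of 3.45, 3.10, 3.07, 3.02, 2.89 and 2.72. The other probe set of Fn1 had -0.40 in heart and -0.07 in muscle, so its value rests on 1 of 2 probe sets. Mmp23, Ctsk, Pcolce, Tgfb3 and Adamts9 also read higher in d/d heart and lower in d/d muscle, with 2.39, 2.26, 1.92, 1.89 and 1.81. The value of Mmp23 is a lower bound, since its d/d muscle signal was under the floor. Other probe sets of Adamts9 had -0.07 and 0.43 in muscle. Serpinf2 read lower in d/d heart and higher in d/d muscle, with -1.71, and its d/d heart and f/f muscle signals were both at the floor. Each rests on 1 pair of arrays per tissue, and none of these differences between tissues was tested.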

How the results depend on the processing

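No paired analysis was possible because each group has 1 array. The count of TIMP and MMP genes past 2-fold in heart, 4, was 3 to 5 under the 8 alternatives of scaling, floor, offset, gene value and probe sets. It was 7 at a threshold of 1.5-fold and 2 at 3-fold. None of the alternatives scaled the arrays to the spike-in controls. Timp3 and Mmp2 lay close to the threshold in heart, at 2.12-fold and 2.08-fold. Of all genes in heart, 11.2% were higher and 13.3% lower at 1.5-fold, and 1.08% and 0.81% at 3-fold. The count in muscle, 1, was 2 when the floor was lowered to the 20th percentile and 0 when it was raised to the 60th, on the log2(intensity + 16) scale and at 3-fold. In d/d mice 6 genes passed between tissues, 4 to 6 under the 8 alternatives, 8 at 1.5-fold and 2 at 3-fold. Of all genes in this comparison, 26.1% were higher in heart and 21.9% lower at 1.5-fold, and 7.05% and 4.07% at 3-fold. Mmp9 was lost there without scaling, with the floor at the 60th percentile, on the log2(intensity + 16) scale and with the median over probe sets. Mmp14 was lost with quantile normalization, on the log2(intensity + 16) scale and with the median over probe sets. In f/f mice 0 passed, and 2 at 1.5-fold, where 24.5% of all genes were higher in heart and 17.9% lower. Of 313 values of single genes under the alternatives, 292 moved by less than the SD between probe sets and 304 kept their sign. For heart minus muscle values the SDs of both tissues were combined. Some alternatives could not move a value, such as other floors for bright genes and other gene values for genes with 1 probe set. Timp1 in heart ran from 5.93-fold to 11.3-fold higher, Mmp3 from 2.25-fold to 4.33-fold and Timp3 from 0.59 to 1.26 on the log2 scale. Timp1 in heart over muscle of d/d mice ran from 8.64-fold to 29.1-fold. Timp4 in heart ran from 1.72-fold to 2.02-fold lower. Timp1 in muscle was 1.39-fold lower on the log2(intensity + 16) scale and at the floor on both arrays with the floor at the 60th percentile. Over all genes in heart, a common median gave 823 higher and 392 lower in place of 545 and 584, with the median of all genes at 0.12 in place of -0.05. The floor at the 20th and 60th percentiles gave 1497 and 1921, and 320 and 249, and the log2(intensity + 16) scale 223 and 167. In muscle these gave 1663 and 1766, 56 and 107, and 47 and 83, in place of 376 and 463, and no scaling 203 and 450. Without scaling, the median over all genes of heart over muscle was 0.45 in d/d and 0.47 in f/f mice. Dim signals limit Mmp3, Mmp9 and Timp1 in muscle. The number of arrays limits every comparison, and variation between animals could not be measured.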
